A study of Mus musculus with 4 samples.

Results

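The genes described here encode the proteins of the mitochondrial ribosome. They were taken as the protein-coding genes whose mouse symbols begin with Mrpl or Mrps followed by a number, which left 77 genes (48 Mrpl and 29 Mrps) of the 53647 genes counted, of which 21626 were protein-coding. RNA was measured in primary myotubes, the multinucleate muscle fibres that form in culture from myoblasts, here of WT genotype and grown from the limb muscles of pups that were 2 to 3 days old. The myotubes were either left as Control or treated for 24 h with 250 ng/mL of EDA-A2, a ligand of the tumour necrosis factor family that binds the receptor EDA2R, and all were harvested 72 h after differentiation began. There were 2 Control and 2 EDA-A2 libraries, made with a stranded poly(A) kit. Nothing in the labels says whether the 2 libraries of a group came from separate cultures, so the p-values measure the spread between these libraries, which may be technical. Such cultures hold the cells of a muscle digest grown in a dish, and fewer cells of a type cannot be told apart from less RNA per cell.

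Mitochondria translate the mRNAs of their own small genome, all of which encode subunits of the respiratory chain and ATP synthase, on a ribosome of their own. The small subunit (proteins named Mrps) holds the mRNA and the decoding centre. The large subunit (Mrpl) joins the amino acids and releases the chain into the inner membrane. The ribosomal RNAs come from mitochondrial DNA, whereas every protein is encoded in the nucleus, made in the cytosol and imported. Some of the proteins have counterparts in bacterial ribosomes and others are found only in mitochondria. Muscle has many mitochondria, and the comparison asks whether the mRNAs of this machinery changed when EDA2R was engaged in myotubes.

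No gene of the 77 passed the test in either direction after EDA-A2 (edgeR's quasi-likelihood test, Benjamini-Hochberg adjusted p under 0.05 over 15173 genes tested), and the smallest adjusted p was 0.138, for Mrps12. DESeq2 called 0 as well, with 1 member at an unadjusted p under 0.05. Over all genes tested, 2.13% were called lower and 2.45% higher. All 77 had enough reads to be tested. Their log2 fold changes (EDA-A2 against Control) ran from -0.24 for Mrps34 to 0.29 for Mrps12, with a median of -0.04 beside -0.002 over all genes tested. The 95% intervals were narrow for most members, with a median half-width of 0.189, and for 75 of 77 the whole interval lay within 0.5 on the log2 scale of no change, which is a 1.41-fold difference. The exceptions were Mrps12, whose interval reached 0.50, and Mrpl53, which had few reads. For the other 75, a change as large as 1.41-fold in either direction therefore lay outside the interval. These intervals use a variance that edgeR shares across all genes tested, not that of each member's own libraries alone.

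Values were below 0 for 47 members and above 0 for 30. That is 61.0% below, against 50.5% of all genes tested. In 23 members (29.9%) both EDA-A2 libraries lay below both Control libraries, as in 22.2% of all genes tested. In 11 (14.3%) both lay above, as in 22.8% of all genes tested, and in the other 43 the groups overlapped. An unadjusted p under 0.05 was reached by 4 members (5.19%), beside 15.6% of all genes tested. These were Mrps12 and Mrpl4, which had higher values with EDA-A2, and Mrps34 and Mrpl42, which had lower ones.

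**Figure D1:**
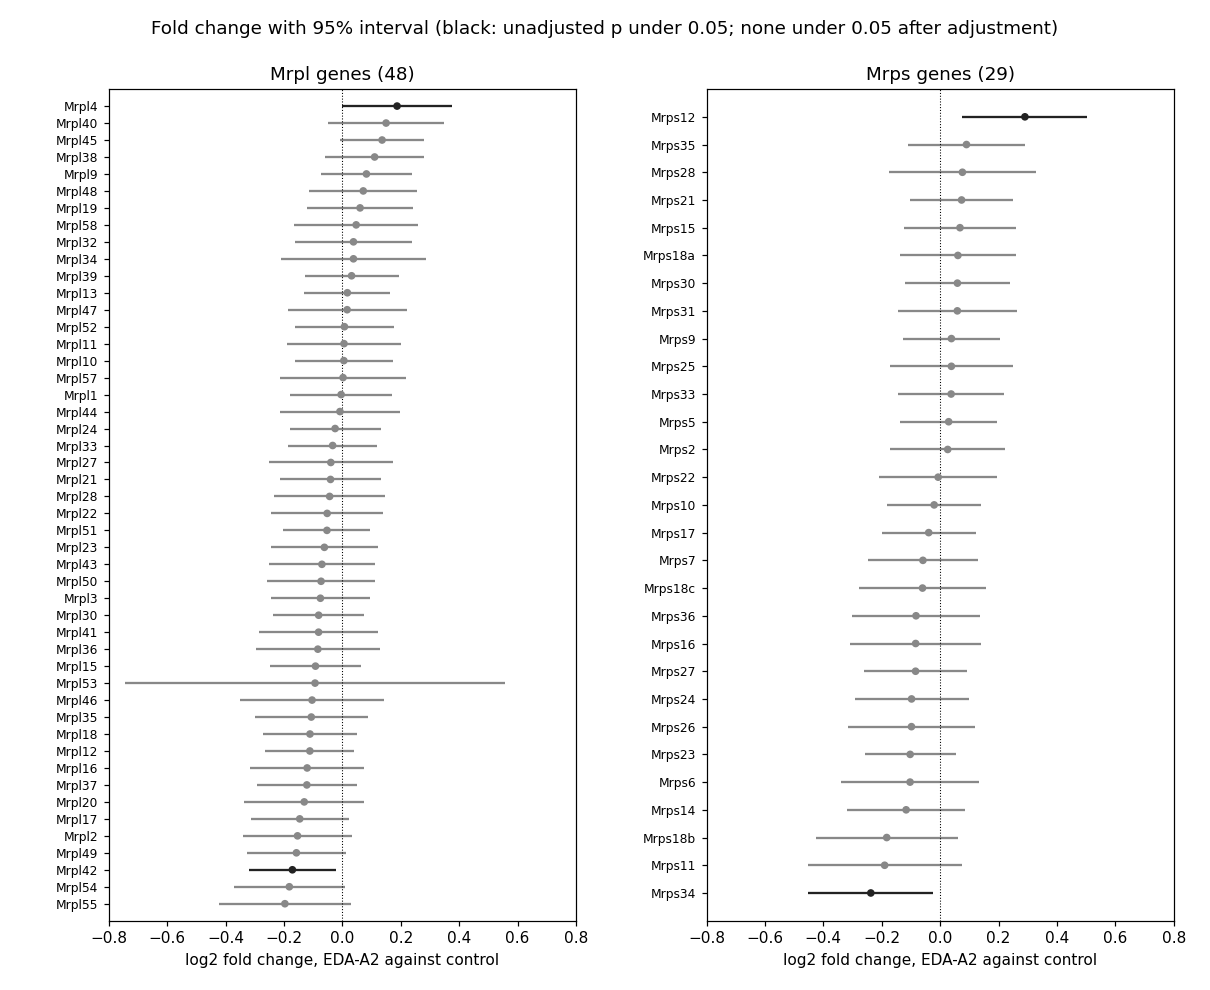
Log2 fold change (x axis, EDA-A2 against Control, 2 libraries each) of the 48 Mrpl genes (left) and the 29 Mrps genes (right), ordered by value. Points are the estimates and bars their 95% intervals from edgeR. Only 4 members have an unadjusted p under 0.05 (black), none has an adjusted p under 0.05, and the widest bar is that of Mrpl53.

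The 4 members with the smallest unadjusted p are given in full. Mrps12 encodes the counterpart of bacterial S12, a protein of the decoding centre. Its normalized read counts were 531 and 623 in Control and 697 and 714 with EDA-A2, so that both treated libraries lay above both controls. The means were 577 ± 65.5 and 706 ± 12.4 (SD, n = 2 each), a log2 fold change of 0.29 with SE 0.10 and an adjusted p of 0.138 by edgeR's quasi-likelihood test. The gap between the groups was smaller than the difference between the Control libraries, and leaving out 1 library at a time gave a log2 fold change from 0.18 to 0.41. Mrpl4 encodes the counterpart of bacterial L4, which lines the exit tunnel of the large subunit. Its normalized read counts were 722 and 754 in Control and 815 and 867 with EDA-A2, again without overlap, which is 0.19 on the log2 scale (adjusted p = 0.319, edgeR's quasi-likelihood test).

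Mrps34, a protein that only mitochondrial ribosomes have, went the other way. Its normalized read counts were 641 and 744 in Control and 573 and 601 with EDA-A2. The treated libraries were both lower, by a smaller gap than that between the controls, and the log2 fold change was -0.24 (SE 0.10) with an adjusted p of 0.251 by edgeR's quasi-likelihood test. The log2 fold change was -0.34 without Control replicate 1 and -0.12 without Control replicate 2. Its transcript overlaps Eme2 on the opposite strand over 19.7% of its length, and whether reads were counted by strand is not given in the sources used here. Mrpl42, another mitochondria-specific protein, had the highest level of the family. Its normalized read counts were 2445 and 2566 in Control against 2210 and 2240 with EDA-A2. Here the groups were well apart relative to their spread, yet the difference was small, at -0.17 on the log2 scale (adjusted p = 0.228, edgeR's quasi-likelihood test).

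**Figure D2:**
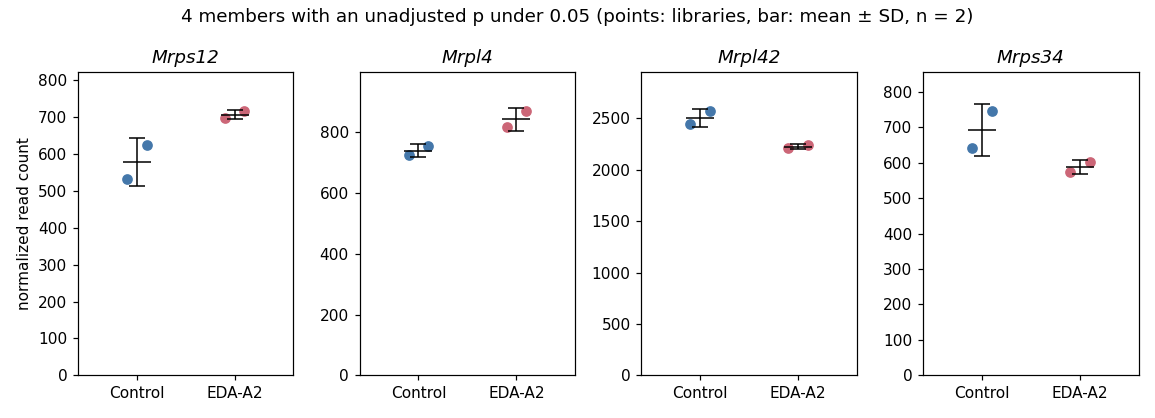
Normalized read count (y axis, from 0) of the 4 members with an unadjusted p under 0.05 in the 2 Control (blue) and 2 EDA-A2 (red) libraries. Horizontal bars are group means and whiskers the SD (n = 2). Mrps12 and Mrpl4 are higher and Mrpl42 and Mrps34 lower in both EDA-A2 libraries, and no difference passed the adjusted threshold.

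The large and small subunits were then compared. The Mrpl genes had a median log2 fold change of -0.05, with 31 of 48 below 0, and the Mrps genes a median of -0.02, with 16 of 29 below 0. Both EDA-A2 libraries lay below both controls for 18 Mrpl genes (37.5%) and 5 Mrps genes (17.2%), beside 22.2% of all genes tested. They lay above for 9 Mrpl genes (18.8%) and 2 Mrps genes (6.9%), beside 22.8%. The Mrpl median was 0.03 below the Mrps median (difference -0.03), and leaving out 1 library at a time moved this difference between -0.06 and -0.01. The Mrps median was 0.02 without Control replicate 1, on the other side of 0, whereas the Mrpl median without EDA-A2 replicate 1 was -0.02. Scaling to total counts alone turned both medians, to 0.01 for Mrpl and 0.03 for Mrps, with the median of all genes at 0.05 on that scale. The genes are not replicates, so no test was run on the difference between subunits.

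Symbols do not always match the place of a protein in the ribosome. Mrps18a (mL66) and Mrps30 (mL65) are known from structures to sit in the large subunit, and Mrps36 is now known as KGD4, a subunit of the 2-oxoglutarate dehydrogenase complex of the citric acid cycle. Mrps18a had normalized read counts of 656 and 630 in Control and 646 and 696 with EDA-A2. Mrps30 had 1143 and 1181 against 1133 and 1287, and Mrps36 had 475 and 505 against 445 and 481. In all 3 the groups overlapped, and the log2 fold changes were 0.06, 0.06 and -0.08. With the genes placed by structure, the 50 large subunit genes had a median of -0.04 and the 26 small subunit genes one of -0.03.

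Mrps18a belongs to a trio of paralogs descended from 1 bacterial protein. Mrps18b (mS40) had normalized read counts of 756 and 606 in Control and 561 and 639 with EDA-A2, a log2 fold change of -0.18 in which the upper treated library lay between the controls. That value was -0.01 without Control replicate 1 and -0.33 without Control replicate 2. Mrps18c (bS18m) had 544 and 497 against 485 and 513, a log2 fold change of -0.06, also with overlap. The paralogs thus had values on both sides of 0, none called. Over 49.5% of Mrps18b and 65.7% of Mrps18c overlapped exons of genes on the opposite strand.

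The proteins were also divided by ancestry. The 45 genes whose proteins have a bacterial counterpart had a median log2 fold change of -0.04, with 29 below 0. The 29 genes whose proteins are found only in mitochondrial ribosomes had a median of -0.01, with 16 below 0. In the large subunit by structure, both EDA-A2 libraries were below both controls for 13 of 29 genes (44.8%) with a bacterial counterpart. This held for 5 of 20 mitochondria-specific genes (25%), beside 22.2% of all genes tested. Both libraries were above for 3 (10.3%) and 6 (30%), beside 22.8%. In the small subunit they were below for 2 of 16 (12.5%) and 3 of 9 (33.3%) and above for 2 (12.5%) and 0. The difference between the classes was not tested. Mrps18a, Mrps18b and Mrps36 were put in neither class. None of the 77 genes was called.

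The remaining members at the ends of the ranking were close to those above. On the lower side of the large subunit, Mrpl55 had 491 and 504 normalized read counts in Control and 459 and 410 with EDA-A2, a log2 fold change of -0.20. Mrpl54 had 740 and 721 against 635 and 653 (log2 fold change -0.18), and 75.6% of its transcript overlaps Matk on the opposite strand. Mrpl49 had 1164 and 1156 against 1012 and 1068 (log2 fold change -0.16). These 3 did not overlap between groups and their adjusted p by edgeR's quasi-likelihood test ran from 0.356 to 0.413. On the upper side, Mrpl40 had 579 and 588 normalized read counts in Control and 668 and 627 with EDA-A2 (log2 fold change 0.15). Mrpl45, which faces the inner membrane at the tunnel exit, had 2901 and 3017 against 3212 and 3291 (log2 fold change 0.14, interval -0.01 to 0.28). Mrpl38 had 1224 and 1335 against 1363 and 1399 (log2 fold change 0.11).

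Among small subunit genes, Mrps11, the counterpart of bacterial S11, had 296 and 315 normalized read counts in Control and 257 and 278 with EDA-A2, a log2 fold change of -0.19 without overlap. Mrps14 had 1063 and 1198 against 960 and 1126, with overlap (log2 fold change -0.12), and leaving out 1 library at a time took this value from -0.24 to -0.005. Mrps35, Mrps28 and Mrps21 came after Mrps12 at the upper end, with log2 fold changes of 0.09, 0.08 and 0.07. Of these only Mrps21, at 1087 and 997 against 1093 and 1100, had no overlap, and its nearest libraries were 6 normalized read counts apart.

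Some proteins of the family have a known second role. Mrpl12 (bL12m) forms the stalk that recruits translation factors and has been described as a partner of the mitochondrial RNA polymerase. Its normalized read counts were 1893 and 1975 in Control and 1784 and 1797 with EDA-A2, a log2 fold change of -0.11 with an interval of -0.26 to 0.04. Mrpl58 (mL62), which frees chains from stalled ribosomes, had 472 and 479 against 489 and 493, a log2 fold change of 0.05 with an interval of -0.17 to 0.26. Both pairs of groups were apart by little more than their own spread, and neither was called.

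Levels were compared between genes per length, in TPM (counts per base of the Ensembl canonical transcript, scaled to the same total in each library). The members spanned 59.7-fold, from 4.37 to 261 TPM as means over 4 libraries, with a median of 41.8. Mrpl42 was highest, at 260 and 279 TPM in Control and 254 and 251 with EDA-A2. Mrpl33, the counterpart of bacterial L33, followed at 208 and 213 against 217 and 217. The libraries of these genes did not overlap, but with the median length of each gene's transcripts in place of the canonical one Mrpl33 came first (262 against 235 TPM), so their order depends on the transcript taken. Then came Mrps21, at 161 and 151 against 176 and 172 TPM, and Mrpl13, at 147 and 155 against 164 and 159, whose ranges overlapped. In the small subunit Mrps23 (mean 108 TPM) and Mrps10 (mean 84.9 TPM) came next and were apart in every library, but with the median transcript length they stood at 96.0 and 97.1 TPM, in the reverse order.

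The lowest level was that of Mrpl53, at 3.67 and 5.13 TPM in Control and 4.15 and 4.55 with EDA-A2. It rested on 30 and 42 reads in Control and 33 and 37 with EDA-A2, and its log2 fold change of -0.09 had an SE of 0.30. The next member up, Mrps25, had a mean of 7.84 TPM and did not overlap with it in any library. Mrps2 (mean 9.74 TPM) and Mrps26 (mean 11.4 TPM) were the next lowest of the small subunit, and Mrpl55 (mean 10.4 TPM) and Mrpl19 (mean 14.2 TPM) those of the large. Mrpl57 (mean 14.2 TPM) overlapped with Mrpl19, as Mrps28 (mean 11.4 TPM) did with Mrps26, so that these pairs have no clear order. With the median transcript length the lowest of the large subunit after Mrpl53 was Mrpl57, at 12.7 TPM, with Mrpl19 at 19.5 TPM. Mrps25 has a canonical transcript of 6102 bases, 58.0% of it opposite Nr2c2, and its mean was 25.3 TPM with the median transcript length. Mrpl17 moved likewise, from 15.6 to 56.5 TPM. Across the 77 genes the mean TPM had a Spearman correlation of 0.01 with the log2 fold change, a description over genes of the same 4 libraries.

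**Figure D3:**
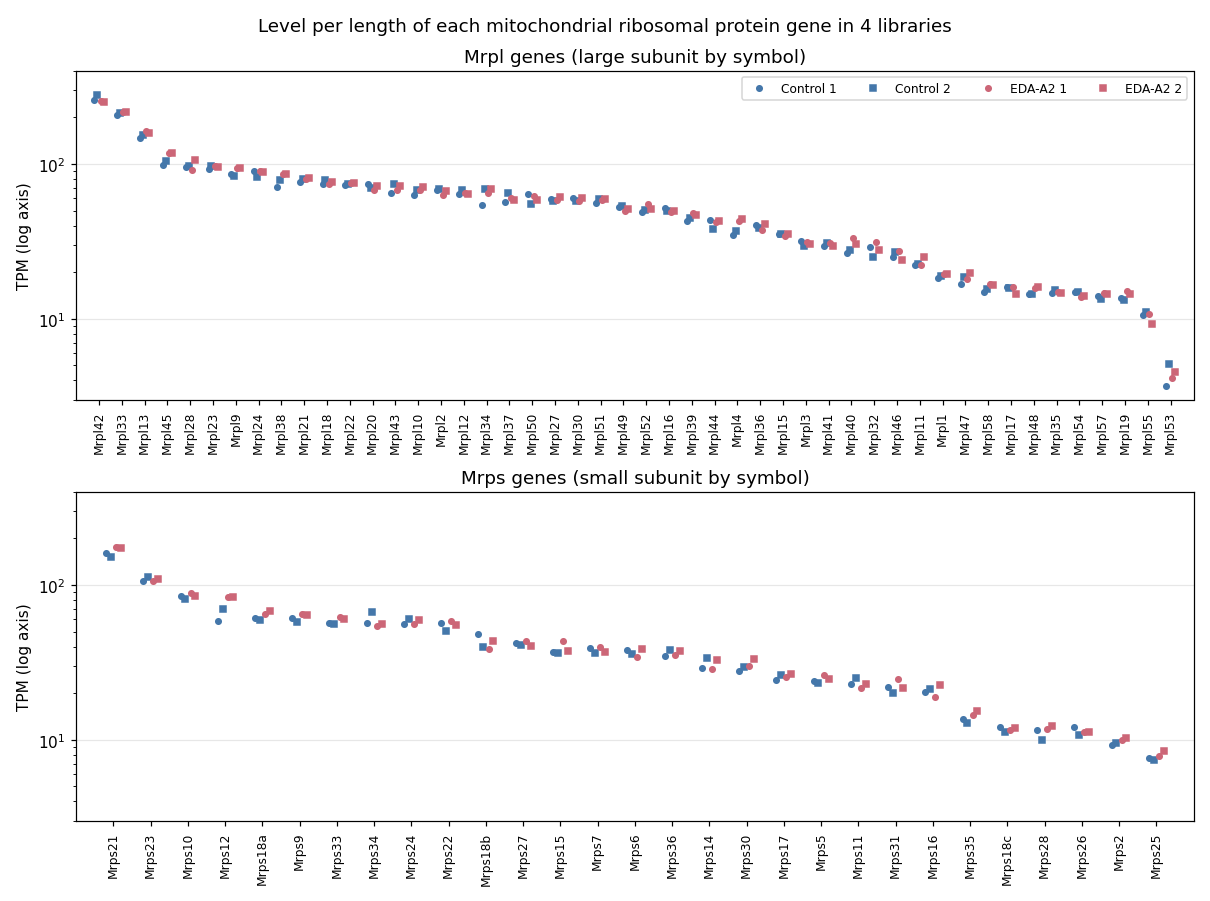
TPM (y axis, log scale) of each Mrpl gene (top) and Mrps gene (bottom) in the 4 libraries, ordered by mean. Blue marks Control and red EDA-A2. The 4 points of a gene lie close together beside the 59.7-fold span between genes, and Mrpl53 stands lowest at 3.67 to 5.13 TPM.

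The median level was 51.5 TPM for Mrpl genes and 36.8 TPM for Mrps genes. Summed over each subunit, TPM stood at a ratio of large to small of 2.20 and 2.27 in Control and 2.19 and 2.19 with EDA-A2, so the gap between the groups was smaller than that between the Control libraries. With genes placed by structure the ratios were 2.53 and 2.61 against 2.52 and 2.54, and the groups overlapped. The 77 genes together took 0.264% and 0.267% of counts in Control and 0.268% and 0.273% with EDA-A2. This share, which carries no normalization beyond the total, was higher in both treated libraries, while the median member after normalization was lower.

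The libraries differed from each other by about as much as the groups did. Relative to each gene's mean, the median member stood at 0.02 in Control 1, 0.01 in Control 2, -0.04 in EDA-A2 1 and 0.01 in EDA-A2 2 on the log2 scale. EDA-A2 1 was the lowest and the other 3 were close together. For the Mrps genes alone Control 2 was the lowest, at -0.04, and EDA-A2 1 stood at -0.03. Without EDA-A2 replicate 1 the median log2 fold change of the members was -0.02, without EDA-A2 replicate 2 it was -0.06, and without Control replicate 1 it was -0.01. Of the 77 members, 40 kept the sign of their log2 fold change under all 14 alternatives that refit the counts, 27 of them below 0 and 13 above.

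**Figure D4:**
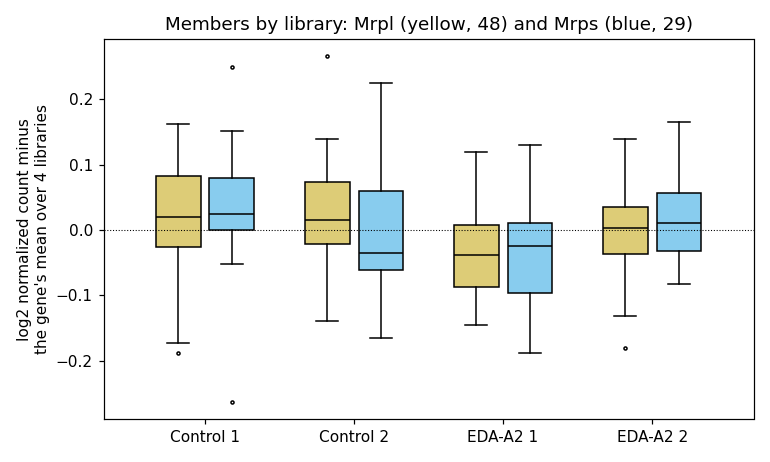
Log2 normalized read count of each member minus its own mean over the 4 libraries (y axis), by library, for 48 Mrpl genes (yellow) and 29 Mrps genes (blue). Boxes span the quartiles, lines are medians, whiskers reach to the last value within 1.5 times the box, and dots lie beyond. EDA-A2 1 has the lowest median of the 4 libraries for Mrpl genes (-0.04), and EDA-A2 2 overlaps both controls.

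Depth was alike in the 4 libraries, at 29444155 to 29746863 counts on genes. EDA-A2 1 stood apart in that 7.40% of its read pairs fell in no gene, against 6.68 to 6.84% in the others. It also held 1770 normalized read counts of mt-Nd6, the mRNA encoded on the light strand of mitochondrial DNA, where the others held 533 to 643. The part of these features in the members' values was not tested. Myotube identity was clear from Myh3, the embryonic myosin heavy chain, at 233601 to 236852 normalized read counts in Control and 156193 to 160086 with EDA-A2. The summed level of 10 myotube markers was 23192 to 23838 CPM (counts scaled to the same library total) in Control and 18421 to 18666 CPM with EDA-A2, and of these 3 were called lower and 1 higher. The 6 myoblast markers summed to 529 to 537 CPM in Control and 575 to 583 CPM with EDA-A2, with Cdh15 called lower and Vcam1 called higher. Of these markers 4 had a log2 fold change below 0 and 2 above, with a median of -0.15, so the sum and the median went opposite ways. The 6 macrophage markers summed to 8.54 to 9.67 CPM in Control and 10.4 to 14.2 CPM with EDA-A2, with the defining Adgre1 at 0 or 1 read in every library. The 8 fibroblast markers summed to 1646 to 1741 CPM in Control and 1656 to 1659 CPM with EDA-A2, with Col3a1 at 39997 to 46066 normalized read counts. The sum does not show the single markers: of 6 tested, 4 had a log2 fold change below 0 and 2 above. Their values ran from -0.46 to 0.48, and 0 were called. Endothelial, Schwann cell and adipocyte markers summed to under 3 CPM in every library, and Plin1 and Sox10 were at 0 in all. The 6 markers of dividing cells summed to 733 to 887 CPM in Control and 832 to 858 CPM with EDA-A2. The part of these cells in the members' values was not tested.

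The rest of the translation machinery was read from lists of related genes, with calls by edgeR's quasi-likelihood test. A count of 0 calls in a list was also 0 with DESeq2. The 5 ribosomal proteins with other kinds of symbol (Dap3, Ptcd3, Chchd1, Aurkaip1 and Gadd45gip1) had 0 calls, 0 with an unadjusted p under 0.05 and a median log2 fold change of -0.07, which was 0.001 without Control replicate 1 and -0.14 without Control replicate 2. Dap3, the small subunit protein that binds GTP, had 1958 and 1814 normalized read counts in Control and 1656 and 1802 with EDA-A2 (log2 fold change -0.13). Aurkaip1, of the small subunit, had 1013 and 1031 against 842 and 983 (log2 fold change -0.16), and Gadd45gip1, of the large subunit, 1206 and 1098 against 1126 and 1069 (log2 fold change -0.07). Ptcd3 and Chchd1 had log2 fold changes of 0.01 and 0.07. The 28 ribosome assembly factors tested had 0 calls, 1 unadjusted p under 0.05 and a median of 0.003, which ranged from -0.02 to 0.02 when 1 EDA-A2 library was left out. Among them Mterf4 had a log2 fold change of -0.21, Fastkd2 one of 0.24 and Rcc1l one of -0.26.

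The 17 mitochondrial translation factors had 0 calls, 1 unadjusted p under 0.05, 6 values below 0 and a median of 0.04, which was 0.009 without EDA-A2 replicate 1 and 0.12 without Control replicate 1. Mtif2, the initiation factor that brings the first tRNA to the small subunit, had 1459 and 1386 normalized read counts in Control and 1660 and 1622 with EDA-A2. The groups did not overlap, and the log2 fold change was 0.21 (adjusted p = 0.159) by edgeR's quasi-likelihood test. Gfm1, the elongation factor of translocation, was at 0.13 and Mtfmt, which formylates the initiator tRNA, at 0.20. The 20 mitochondrial tRNA synthetases also had 0 calls and 1 unadjusted p under 0.05, with 5 values below 0 and a median of 0.05, which was 0.02 without EDA-A2 replicate 2 and 0.09 without Control replicate 1. Nars2, the asparaginyl enzyme, was the one nearest to the threshold, at 1151 and 1001 normalized read counts in Control and 885 and 892 with EDA-A2 (log2 fold change -0.28, adjusted p = 0.107 by edgeR's quasi-likelihood test).

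Of the 20 genes that copy, transcribe or process mitochondrial DNA and its RNA, 1 rose and 0 fell. This was Tfam, which packages mitochondrial DNA and starts its transcription. Its normalized read counts were 1379 and 1413 in Control and 1809 and 1887 with EDA-A2, with both treated libraries far above both controls, and the log2 fold change was 0.41 (SE 0.07, adjusted p = 0.00412 by edgeR's quasi-likelihood test). The call was not made when either Control library or EDA-A2 replicate 2 was left out, nor without the filter on low counts. The list's median was 0.03, and leaving out 1 library at a time took it from 0.002 (Control replicate 2) to 0.10 (Control replicate 1). The mitochondrial ribosomal RNAs, which carry at most short A tails while the kit selects poly(A) RNA, had log2 fold changes of -0.01 (mt-Rnr1) and -0.14 (mt-Rnr2), neither called. Of 13 mRNAs of mitochondrial DNA, 9 were tested, 0 were called and 1 had an unadjusted p under 0.05. The latter was mt-Nd6, at 0.89 on the log2 scale. Leaving out EDA-A2 replicate 1, the library with the high value given above, turned this to -0.22, and leaving out EDA-A2 replicate 2 made it a call. Of the others mt-Nd5 had a log2 fold change of -0.15 and mt-Nd4 one of -0.08. Some of these mRNAs were barely counted, with 23 to 38 reads of mt-Co2 in a library that held 236533 to 256830 of mt-Co1, and the levels of mitochondrial mRNAs were not compared with each other for that reason.

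Genes of the respiratory chain and of the cytosolic ribosome gave a scale for these values. Of 84 nuclear genes of the respiratory chain and ATP synthase tested, 6 fell and 0 rose (Cox6a2, Uqcr10, Ndufa13, Ndufb10, Atp5me and Cox8b). Of all genes tested, 2.13% were called lower and 2.45% higher. An unadjusted p under 0.05 was reached by 48 of the 84 (57.1%), all with lower values, beside 15.6% of all genes tested. The log2 fold change was below 0 for all 84 (80 on total counts alone), with a median of -0.18, and both EDA-A2 libraries lay below both controls for 73 (86.9%, beside 22.2% of all genes tested). Cox6a2, the muscle form of a cytochrome oxidase subunit, had 5637 and 5025 normalized read counts in Control and 4090 and 3936 with EDA-A2 (log2 fold change -0.41, adjusted p = 0.00349 by edgeR's quasi-likelihood test). Uqcr10, of complex III, and Ndufa13, of complex I, had log2 fold changes of -0.32 and -0.28. The number called in this list was 0 without either Control library and 0 without the filter on low counts, 1 without EDA-A2 replicate 1, and it was 9 without EDA-A2 replicate 2 and 1 on total counts alone, with medians from -0.24 to -0.11 in these refits. These nuclear genes thus had a median of -0.18 beside -0.04 for the mitochondrial ribosomal protein genes. No test of the difference between lists was run. The 80 cytosolic ribosomal protein genes tested had 0 calls, 5 with an unadjusted p under 0.05, 71 values below 0 and a median of -0.07. On total counts alone 42 of these 80 were below 0, beside 36.2% of all genes tested, and their median was -0.01. Without EDA-A2 replicate 1 it was likewise -0.01, with 49 below 0, and without EDA-A2 replicate 2 it was -0.12, with 1 gene called lower (Rps29). Rps28, the gene of that list with the smallest p, had 7246 and 7691 normalized read counts in Control and 6013 and 6657 with EDA-A2 (log2 fold change -0.24).

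**Figure D5:**
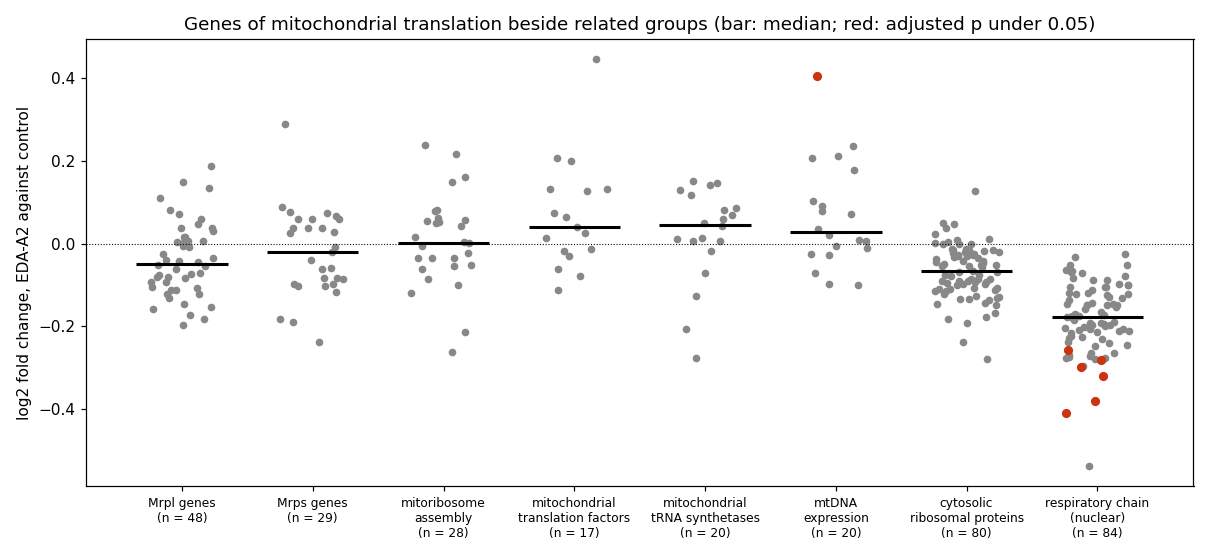
Log2 fold change (y axis, EDA-A2 against Control) of each gene tested in 8 groups, with the median of each group as a black bar and genes with an adjusted p under 0.05 in red. The Mrpl and Mrps genes centre on -0.05 and -0.02, and the respiratory chain genes lie below 0 throughout, around -0.18.

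Many members share a start region with a neighbour on the opposite strand, and 19 of the 77 had the start of a protein-coding gene that was tested within 1000 bases. None of these partners was called. Mrps11 and Mrpl46, which encode proteins of the small and the large subunit, start 30 bases apart on chromosome 7 and had log2 fold changes of -0.19 and -0.10. Mrps12 starts 129 bases from Sars2, the mitochondrial seryl-tRNA synthetase, which had a log2 fold change of 0.05. Mrpl43 starts 56 bases from Twnk, the helicase of mitochondrial DNA, and these had -0.07 and 0.01. Starts here are those of the Ensembl canonical transcripts. The sequences between the paired starts are shown because few bases separate the canonical starts of genes that both act in mitochondrial gene expression. The stretches before Mrpl45 and Mrps34 are shown because they hold motifs that many members share. Annotated spans of Mrps12, Mrpl43 and Mrpl46 reach further upstream, so the stretch printed for each of these pairs lies within that gene's span. All were read from GRCm39 on the strand of the first gene named, 5′ to 3′, and lie before its canonical start. Capitals mark the letters of a motif described in the next paragraph.
Mrps12 and Sars2, chr7:28441269-28441396, minus strand: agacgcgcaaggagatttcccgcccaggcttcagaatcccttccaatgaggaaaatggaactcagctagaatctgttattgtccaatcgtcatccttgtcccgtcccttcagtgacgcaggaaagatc
Mrps11 and Mrpl46, chr7:78432838-78432866, plus strand: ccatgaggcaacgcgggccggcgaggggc
Mrpl43 and Twnk, chr19:44994882-44994936, minus strand: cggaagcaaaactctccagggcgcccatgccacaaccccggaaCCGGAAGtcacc
Mrpl45, chr11:97206392-97206541, plus strand: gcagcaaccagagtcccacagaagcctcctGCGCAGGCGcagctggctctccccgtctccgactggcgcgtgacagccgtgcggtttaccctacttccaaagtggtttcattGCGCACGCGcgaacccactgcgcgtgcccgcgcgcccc
Mrps34, chr17:25113922-25114071, plus strand: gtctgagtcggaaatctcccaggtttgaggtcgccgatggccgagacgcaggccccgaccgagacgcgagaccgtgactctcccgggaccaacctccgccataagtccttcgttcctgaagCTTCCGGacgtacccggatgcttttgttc

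Motif letters were searched on both strands in the 300 bases around each start (250 before and 50 after). NRF1 is a factor known to act on nuclear genes of mitochondrial function, and its letters GCGCANGCG were in the windows of 15 members (19.5%), against 11.9% of the 13065 protein-coding genes tested. In Mrpl45 they occur at bases 31 to 39 and again at 113 to 121 of the stretch printed. The ETS family, which includes the mitochondrial regulator GABP, was searched as CCGGAAG and found in 24 members (31.2%) against 14.9%. Mrpl43 has it at bases 44 to 50, and Mrps34 holds it on the reverse strand at bases 122 to 128. The YY1 letters AAGATGG were in 9 members (11.7%) against 6.16%. One or more of these 3 motifs was in 39 members (50.6%) against 29.0%.

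Another pair of motifs was searched in the same way. The E-box CACGTG was in 5 members (6.49%) against 10.1% of the genes tested, and GGANTTTCC, letters of NF-kB sites, in 1 member, Mrps21 (1.30%), against 1.28%, a single match that shows no difference either way. NF-kB is the factor that receptors of the tumour necrosis factor family are known to engage. Members with the NRF1 letters had a median log2 fold change of -0.01 and those without -0.04, and members with the ETS letters had -0.04, as had those without. The 9 members with the YY1 letters had -0.08 and those without -0.04. The 5 with the E-box likewise had -0.08 and those without -0.04. None of these differences was tested. The stretches printed for Mrps12 and Mrps11 held none of the 5 motifs, while their 300-base windows, which reach past the start, held the YY1 letters in both genes and the ETS letters in Mrps12. A match says only that the letters are present, and its absence only that they are not in that window.

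Copies and overlapping genes were counted last. The 6 pseudogenes of the family in the tables held 58 reads in all, at most 12 in a library, against 317485 reads on the 77 members. On the opposite strand 28 members overlapped exons of another gene, 5 overlapped one on the same strand, and for 13 the overlap covered over 20% of the transcript. Read pairs that fell on several genes (0.946 to 0.986% of pairs in a library) were left out of the counts, and how many of these belonged to each member was not tested.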

How the data were processed

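Each of the 4 deposited tables held raw counts, the whole number of read pairs that the authors assigned to each Ensembl gene. According to the submitters' processing notes the authors used FastQC 0.11.9, MultiQC 1.12, Trim Galore 0.6.5, STAR 2.7.3a, HTSeq 0.11.1 and the build GRCm39. The annotation release and the strand setting are not given in the sources used here. Summary rows for pairs in no gene, in several genes or not unique entered neither the library sizes nor the fit. Pairs in no gene made up 6.68 to 7.40% of all pairs. Counts per library on genes ranged from 29444155 to 29746863. The p-values and intervals rest on the spread between 2 libraries a group, with each gene's variance drawn by edgeR towards that of all genes tested.

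Symbols, coordinates and canonical transcripts came from GENCODE vM39 (52610 of 53647 genes matched). Mrpl and Mrps members, the gene lists and the rule for genes named in the text were chosen with earlier results of these data known. Named were the 4 lowest and 4 highest log2 fold changes and the 3 highest and 3 lowest TPM of each subunit, genes whose place or role differs from their symbol, and up to 3 genes of smallest p in each other list. The other respiratory chain genes that passed the test, the head-to-head partners and marker genes at 0 were named after their values were seen. 1 further gene of the family is not reported here.

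Counts were fitted across 15173 genes with edgeR 4.0.16 (R 4.3.3), with TMM factors, filterByExpr (minimum count 10, minimum total 15), the quasi-likelihood test (two-sided) and Benjamini-Hochberg adjustment over all genes tested, at a threshold of 0.05. Normalized read counts were counts divided by TMM-scaled library size times the mean library size. The fit was tested on simulated data. Alternatives were other scalings, other filters, DESeq2 1.42.0, offsets for length and GC content, the replicate number as a block, protein-coding genes alone, subunits by structure, and each library left out. Motifs and sequences were read with Python 3.11.15.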

Additional observations from a re-analysis of the deposited data

How the results depend on the processing

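The count of members called lower was 0 under every alternative run, and the count called higher was 0 under all but one. With length and GC offsets together with the replicate block, 1 member was called higher, Mrps12, at 0.34 on the log2 scale (adjusted p = 0.00613, edgeR's quasi-likelihood test). By the same test its adjusted p was 0.0606 with the block alone, 0.0824 with the offsets alone and 0.0916 on total counts. It was 0.346 by DESeq2's Wald test, and without the filter on low counts no member was below 0.450 by edgeR's quasi-likelihood test. The replicate numbers were not shown to pair the libraries: the difference between the Control libraries correlated at 0.06 with that between the EDA-A2 libraries over 15173 genes and at 0.13 over the 11354 genes that averaged 100 or more normalized reads, with only 2 pairs. With the replicate block the median of the members was -0.04, no member was called, and the calls over all genes went from 323 lower and 371 higher to 529 and 537; with length and GC offsets added they were 721 and 582. In the lists, these 2 fits called 20 and 23 respiratory chain genes lower (6 without the block) and 2 and 2 cytosolic ribosomal protein genes lower. They also called lower 1 and 1 tRNA synthetase (Nars2) and 0 and 1 mitochondrial ribosomal RNAs. Of the mitochondrial mRNAs they called 0 and 1 lower and 1 and 1 higher. The calls over all genes, lower and higher, also moved in other settings. Without a filter on low counts they were 22 and 64, without either Control library 0 and 0, without EDA-A2 replicate 1 164 and 238, without EDA-A2 replicate 2 170 and 207, and on total counts alone 194 and 485, the share of calls that were higher moving from 53.5% to 71.4%.

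The medians were less firm than the absence of calls. Scaling to total counts alone moved the median log2 fold change of all members to 0.01 (0.0140), of Mrpl genes to 0.0066 (0.00662) and of Mrps genes to 0.03 (0.0347), and 35 members were then below 0. The median of all genes tested rose to 0.05 on that scale, with 36.2% of them below 0. Relative to that median the members' median stood at -0.039, as it did in the main fit. Leaving out 1 library at a time took the median of all members from -0.064 to -0.013, of Mrpl genes from -0.067 to -0.017 and of Mrps genes from -0.037 to 0.016. Of 1075 alternative values of named genes, 970 stayed called, or stayed uncalled and within the SE of the gene's log2 fold change in the main fit. A further 56 moved by that SE or more without a call, and the rest gained or lost a call. Counted apart from these classes, 31 values changed sign. A called direction was reversed in 0, but no member was called in the main fit, so that count could concern only genes of the other lists. Depth limited Mrpl53 most, and with 2 libraries a group differences of the size seen in most members were within the intervals.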
